A study of Mus musculus with 8 samples.

Results

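The comparison is between the 4 arrays of EGFP-high tumour cells among the 8 arrays of the series: 2 arrays of Lewis lung carcinoma (LLC) cells against 2 of colon26 cells, matched by the replicate number in the labels. LLC is a mouse lung carcinoma line that arose in a C57BL mouse, and colon26 is a chemically induced mouse colon carcinoma line of BALB/c origin. Both lines carried EGFP under the mouse PSF1 promoter, PSF1 being the product of Gins1, and were grown as subcutaneous tumours in mice, for 4 weeks in the case of LLC and 2 weeks in the case of colon26. The tumours were dissociated, cells with high EGFP were collected by flow sorting, and 6 µg of Trizol-extracted total RNA was hybridised to Affymetrix whole-genome mouse arrays, of which the deposited values are log2 signals from RMA, a method that corrects background, normalizes and summarises the probes of each probe set. Line, strain of origin and weeks of growth cannot be told apart in this design. The labels give neither the strain nor the sex of the host mice, and they call the arrays biological replicates without saying whether each came from its own tumour, so the p-values measure only the spread between these arrays. The free-text description of the colon26 arrays names LLC, whereas their titles, sources and cell line entries name colon26, which was followed here.

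PSF1 is a subunit of the GINS complex, which together with Cdc45 and the MCM proteins forms the helicase that unwinds DNA during replication, so a PSF1 promoter reporter is brightest in cells that are proliferating. A carcinoma line keeps a part of the gene programme of the cell it arose from: keratins and junction proteins mark epithelial cells, whereas fibronectin, N-cadherin and collagens mark mesenchymal cells and fibroblasts. Because the RNA is of bulk sorted cells, fewer cells of a type and less RNA per cell cannot be told apart.

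The number in the labels had a large effect of its own, and it ran across both lines. The median difference between probe sets at the 3′ and the 5′ ends of control transcripts was 2.70 and 2.41 (log2) in number 1 of LLC and colon26, and -0.01 and 0.35 in number 2. Over 12177 genes, the number 1 minus number 2 deviations of LLC and colon26 correlated at a Pearson r of 0.84, across genes, which are not independent replicates. The arrays were therefore compared within numbers, by limma with the number as a block. The lower end of the signal also differed: the 1st percentile of all probe sets lay at 2.86 and 2.80 in LLC and at 3.34 and 3.28 in colon26, and probe sets with a mean under 4 had median LLC minus colon26 differences of -0.42 and -0.44. Above a mean of 5 those medians lay between -0.05 and -0.02. Values under log2 5 are hence read as background here, and the size of a difference against such a value is uncertain. Which arrays were normalized together is not given in the sources used here.

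Of 18193 genes named on the array, 11509 had a signal above log2 5 in at least 2 of the 4 arrays and were tested. Relative to colon26, 2168 genes were higher in LLC (18.8% of those tested) and 2984 were higher in colon26 (25.9%) at a limma adjusted p under 0.05, of which 983 and 1369 differed by more than 2-fold. The shares of 18.8% and 25.9% are the background for the counts of every gene list below. The split depended on the scaling between arrays, with 2698 higher in LLC and 2439 higher in colon26 after median centring and 2612 and 2678 after quantile normalization, and median centring moved the median difference of all genes from -0.08 to 0.03. Without the replicate number as a block, the counts were 334 and 522. The fits that leave out 1 array, here and below, also held the 4 EGFP-low arrays. Their baseline is thus the fit of all 8 arrays with the block, at 1902 and 2776 calls. Leaving out 1 array gave 1298 and 1840 calls without LLC number 1, 1046 and 1546 without LLC number 2, 1033 and 1795 without colon26 number 1, and 1104 and 1410 without colon26 number 2. Across the 11509 genes, arrays of the same line and different number correlated at r = 0.92, and arrays of different line and the same number at r = 0.83 and 0.81. The median absolute difference was 0.43 and 0.42 between the replicates of LLC and of colon26, and 0.45 and 0.50 between the lines within numbers 1 and 2. Gins1 itself had 8.42 and 8.51 in the LLC arrays and 8.29 and 8.38 in the colon26 arrays, a difference of 0.13 ± 0.15 (SE), adjusted p = 0.49, and was not called.

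The 30 genes named for the size of their difference, 15 in each direction, kept their calls under all the alternatives tried on single genes. Of the 15 higher in colon26, 14 were under log2 5 in both LLC arrays, and of the 15 higher in LLC, 9 were under log2 5 in both colon26 arrays. Of the 30, 18 had more than 1 probe set tested, and in none of the 30 was a probe set called the other way.

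Fst and Tnc, genes of a secreted and a matrix protein, showed the largest measured differences on the colon26 side. Mgp, Fgf7 and Dio2, given after them, had the smallest of the 15. Fst, which encodes follistatin, an activin-binding protein, had 13.23 and 13.19 in the colon26 arrays and 3.89 and 3.45 in the LLC arrays, a difference of -9.54 ± 0.17 (SE), adjusted p = 3.5e-05. Tnc, the matricellular glycoprotein tenascin C, had 13.47 and 13.72 in the colon26 arrays and 4.07 and 4.25 in the LLC arrays (-9.43 ± 0.15 (SE), adjusted p = 3.5e-05). In both genes the gap between replicates of a line was small beside the difference, the absence of overlap being a condition of the choice of the 30 genes. Mgp, a matrix inhibitor of calcification, had 10.68 and 12.16 in the colon26 arrays and 3.61 and 4.08 in the LLC arrays (-7.58). Fgf7, a growth factor that mesenchymal cells make for epithelia, had 11.33 and 10.51 in the colon26 arrays and 3.61 and 3.25 in the LLC arrays (-7.49). Dio2, the enzyme that activates thyroid hormone, had 11.57 and 11.89 in the colon26 arrays and 4.42 and 4.00 in the LLC arrays (-7.52). Each of these was near background in LLC.

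The other genes of the 15 higher in colon26 have varied functions. Sox4, an HMG-box transcription factor of progenitor cells, had 12.27 and 11.78 in the colon26 arrays and 3.24 and 3.08 in the LLC arrays (-8.87 ± 0.16 (SE), adjusted p = 3.5e-05), with 5 of 5 probe sets called in that direction. Egr1, an immediate early transcription factor, had 13.46 and 13.22 in the colon26 arrays and 5.24 and 5.14 in the LLC arrays (-8.15). Baiap2l1, an adaptor that bends membranes and bundles actin, had 12.45 and 13.20 in the colon26 arrays and 4.45 and 4.19 in the LLC arrays (-8.51). Krt20, a keratin of intestinal epithelium, had 11.81 and 12.27 in the colon26 arrays and 3.87 and 3.63 in the LLC arrays (-8.29 ± 0.21 (SE), adjusted p = 3.7e-05). Cryab, a small heat shock protein, had 11.54 and 11.66 in the colon26 arrays and 3.66 and 4.23 in the LLC arrays (-7.65). Cytip, which binds the cytohesin family of exchange factors, had 12.40 and 11.95 in the colon26 arrays and 4.65 and 4.54 in the LLC arrays (-7.58). The difference in each of these genes exceeded the largest gap between the replicates of a line many times over. Rarres1, a retinoid-responsive gene, had 10.86 and 10.99 in the colon26 arrays and 3.40 and 3.18 in the LLC arrays (-7.64). The last 3 genes belong to families of closely related sequence, in which probe sets may not separate the members. These are Rpl39l, a paralogue of the ribosomal protein gene Rpl39 (-8.83), Ifi202b, an interferon-inducible DNA sensor of the p200 family (-8.11), and Akr1c18, a steroid-metabolising aldo-keto reductase (-8.04).

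On the LLC side, Krt8, a keratin of simple epithelia, showed the largest measured difference, with 12.53 and 12.80 in the LLC arrays and 5.42 and 5.31 in the colon26 arrays (7.31 ± 0.17 (SE), adjusted p = 3.5e-05), and 3 of 3 probe sets were called in that direction; where colon26 is at background the order of the differences is not settled. Egln3, an oxygen-sensing prolyl hydroxylase that hypoxia itself induces, had 11.04 and 11.04 in the LLC arrays and 4.06 and 4.10 in the colon26 arrays (6.96 ± 0.15 (SE), adjusted p = 3.5e-05). Adm, which encodes the vasodilator peptide adrenomedullin, had 11.43 and 10.85 in the LLC arrays and 5.89 and 5.21 in the colon26 arrays (5.59). Each of these had a clear signal in both LLC arrays. Hoxd10, a posterior Hox transcription factor, had 9.29 and 9.18 in the LLC arrays and 3.43 and 3.47 in the colon26 arrays (5.79). Bnc1, a zinc-finger protein of basal epithelia and germ cells, had 10.38 and 9.83 in the LLC arrays and 3.81 and 3.67 in the colon26 arrays (6.37). Mbnl3, a muscleblind splicing regulator on the X chromosome, had 10.66 and 10.25 in the LLC arrays and 3.91 and 3.68 in the colon26 arrays (6.66). Both colon26 arrays were at background for these genes, so the regulators separated a clear signal from none that could be told from background.

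Adhesion and polarity genes followed among those higher in LLC. Nectin3, an adhesion molecule of adherens junctions, had 9.04 and 8.65 in the LLC arrays and 3.6 and 3.56 in the colon26 arrays (5.27), with 5 of 5 probe sets in that direction. Mpdz, a multi-PDZ scaffold of tight junctions, had 9.92 and 8.84 in the LLC arrays and 3.68 and 3.73 in the colon26 arrays (5.68). Ank3, the membrane skeleton adaptor ankyrin-G, had 10.97 and 10.40 in the LLC arrays and 5.16 and 5.17 in the colon26 arrays (5.52). These genes connect the membrane to junctions or to the skeleton, and all differed by more than the spread within a line. Emb, an immunoglobulin superfamily chaperone of monocarboxylate transporters, had 10.30 and 11.33 in the LLC arrays and 5.18 and 4.90 in the colon26 arrays (5.78). Fabp5, a fatty acid-binding protein, had 10.17 and 9.49 in the LLC arrays and 5.50 and 3.71 in the colon26 arrays (5.23), where the colon26 arrays differed from each other. Nptx1, a neuronal pentraxin, differed by 6.78, Nxf3, an mRNA export factor on the X chromosome, by 5.93, Rpgrip1, a photoreceptor cilium protein, by 5.78, and the predicted gene Gm364 by 7.27.

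**Figure D1:**
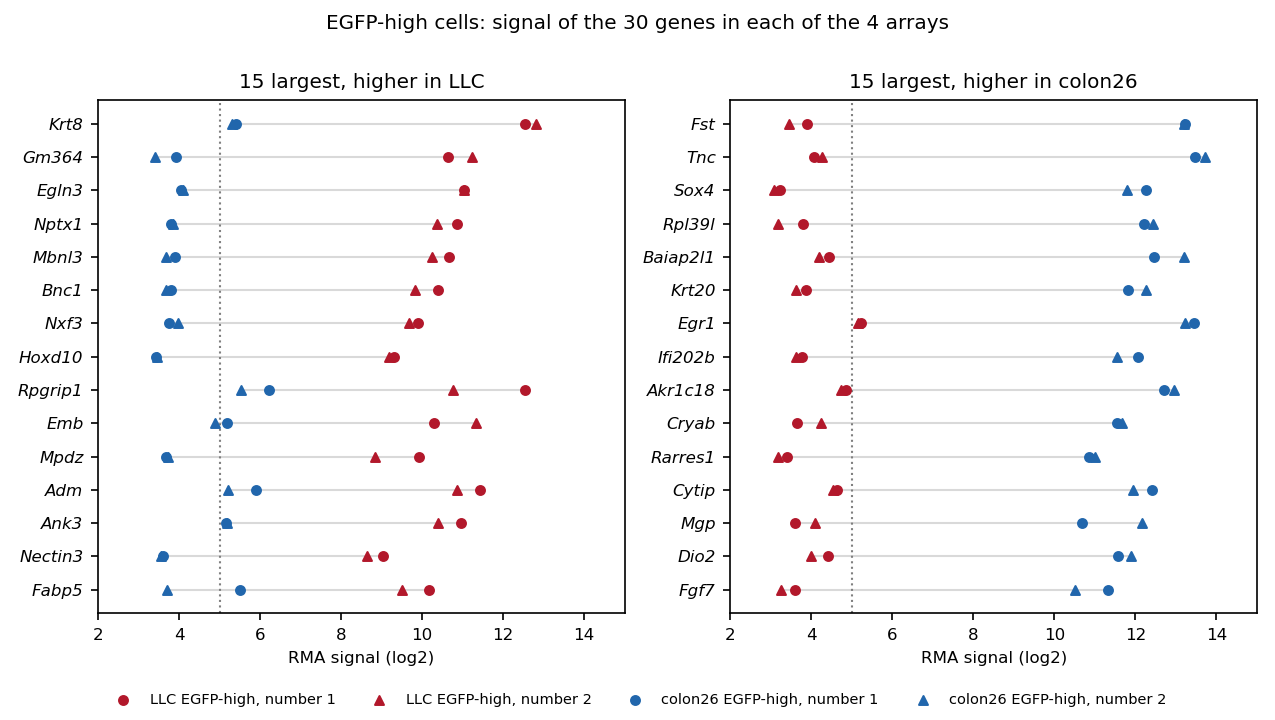
The RMA signal (log2, horizontal axis) of the 15 genes with the largest difference in each direction is plotted for each of the 4 EGFP-high arrays; red is LLC, blue is colon26, circles are number 1, triangles number 2, and the dotted line is log2 5. The genes were chosen among those whose arrays did not overlap between the lines; Fst runs from 3.45 in LLC to 13.23 in colon26.

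Genes present in 1 line and at background in the other were also counted without a test, as those above log2 7 in both arrays of a line and under log2 5 in both of the other. There were 95 such genes in LLC and 166 in colon26. In EGFP-low cells the arrays of the 2 lines did not overlap for any of the 261 genes, and 52 of the 95 and 113 of the 166 met the same cuts there. These genes were chosen for a wide gap between the same lines. The share of all genes tested without overlap in EGFP-low cells was not counted. A cut of 8 in place of 7 left 36 and 93 genes, and a cut of 6 in place of 5 gave 166 and 248. How many neighbours any other 261 genes would give was not counted, so no clustering is read from the pairs below. Among the 261, 7 pairs were neighbours on a chromosome among the genes measured. In LLC these were Nhsl1 with Hebp2 and the interferon-inducible GTPase gene Gbp2 with Kyat3. In colon26 they were the neurofilament genes Nefl with Nefm, the forkhead factor Foxf1 with its divergent noncoding neighbour Fendrr, Slc16a13 with Bcl6b, Pde6h with Rerg, and Cryab with 2310030G06Rik.

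Epithelial junction genes differed in both directions, whereas most called mesenchymal genes were higher in colon26. Of the epithelial junction and keratin genes on the array, 20 of 34 were tested, and 7 were higher in LLC and 4 higher in colon26, with a median difference of 0.07 against -0.08 over all genes tested and -0.18 for the list in EGFP-low cells; the background shares are the 18.8% and 25.9% given above. Krt18, the partner of Krt8 in simple epithelial filaments, had 9.14 and 8.97 in the LLC arrays and 3.98 and 3.97 in the colon26 arrays (5.08 ± 0.15 (SE), adjusted p = 4.9e-05). The desmosomal plakophilins Pkp2, with 9.09 and 7.74 in the LLC arrays and 3.79 and 3.91 in the colon26 arrays (4.57), and Pkp3, with 7.84 and 7.81 in the LLC arrays and 5.42 and 5.32 in the colon26 arrays (2.46), were also higher in LLC. The 4 genes of the list called higher in colon26 had smaller differences than these and are not named. The keratin genes Krt20 (-8.29) and Krt10 (-3.71) are not in this list and were higher in colon26. Other epithelial genes were not all detected. Epcam, an epithelial adhesion molecule, had 7.01 and 6.70 in the LLC arrays and 5.99 and 6.16 in the colon26 arrays (0.78, adjusted p = 0.021), and Grhl2, an epithelial transcription factor, lay between 6.09 and 6.79 and was not called. At background in all 4 arrays were 3 others: Cdh1, which encodes E-cadherin, lay between 2.95 and 3.65 in the 4 arrays, the keratin gene Krt19 between 3.85 and 4.68, and Esrp1, an epithelial splicing regulator, between 3.36 and 3.77. With line alone in the model, 5 and 0 epithelial genes were called higher in LLC and in colon26.

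Of the mesenchymal transition genes 19 of 22 were tested, and 14 were higher in colon26 against 1 in LLC (median -1.79). Cdh2, which encodes N-cadherin, had 10.25 and 9.54 in the colon26 arrays and 2.76 and 2.94 in the LLC arrays (-7.04 ± 0.24 (SE), adjusted p = 6.1e-05). Mmp2, a gelatinase, had 11.17 and 11.66 in the colon26 arrays and 4.51 and 5.28 in the LLC arrays (-6.52). Loxl1, a collagen and elastin cross-linking enzyme, had 7.83 and 9.12 in the colon26 arrays and 3.45 and 3.85 in the LLC arrays (-4.83). Tgfbi, a matrix protein induced by TGF-beta, had 10.65 and 10.58 in the colon26 arrays and 6.51 and 5.94 in the LLC arrays (-4.39). All 4 separated the lines. The transcription factor gene Zeb1 and the intermediate filament gene Vim were not called, with differences of -0.46 and -0.18. Collagen, matrix and matricellular genes went the same way in 15 of 27 tested, with 4 higher in LLC (median -0.76). Next to Tnc and Mgp, these included Thbs1, thrombospondin 1, with 9.79 and 11.00 in the colon26 arrays and 4.23 and 4.89 in the LLC arrays (-5.83), and Col4a5, a basement membrane collagen chain, with 8.76 and 7.83 in the colon26 arrays and 2.99 and 2.93 in the LLC arrays (-5.34). In the fit with no replicate block, 0 and 7 mesenchymal and 1 and 10 matrix genes were called higher in LLC and in colon26.

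Markers of fibroblasts differed in both directions. Of 15 fibroblast markers on the array, 13 were tested, 7 were higher in colon26 and 4 higher in LLC, with a median difference of -0.61 that was 0.17 in EGFP-low cells. Their summed linear signal was 10846 to 11580 in the LLC arrays and 34541 to 36597 in the colon26 arrays, and none of them is at 0 in RMA values. Col1a2, a chain of type I collagen, had 13.17 and 13.19 in the colon26 arrays and 5.34 and 6.51 in the LLC arrays (-7.25 ± 0.29 (SE), adjusted p = 7.8e-05). Col1a1, the other chain, had 9.68 and 10.64 in the colon26 arrays and 4.77 and 5.87 in the LLC arrays (-4.84). Mfap5, a microfibril protein, had 9.83 and 10.60 in the colon26 arrays and 4.18 and 4.61 in the LLC arrays (-5.82). Dcn, the proteoglycan decorin, had 13.07 and 13.33 in the colon26 arrays and 9.12 and 9.43 in the LLC arrays (-3.92). In the other direction Col5a2, a type V collagen chain, had 9.25 and 8.65 in the LLC arrays and 5.86 and 5.74 in the colon26 arrays (3.15), and Dpt, the matrix protein dermatopontin, had 8.48 and 8.63 in the LLC arrays and 5.94 and 6.27 in the colon26 arrays (2.45). The part of fibroblasts in the differences of matrix and mesenchymal genes was not tested. Col1a2, Col1a1 and Dcn differed less between the lines in EGFP-low cells, by -4.20, -3.42 and -0.89.

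Matrix proteases and their inhibitors were tested in 35 of 44 cases, of which 18 were higher in colon26 and 7 higher in LLC (median -0.65). The stromelysins Mmp10, with 11.93 and 11.55 in the colon26 arrays and 4.71 and 4.86 in the LLC arrays (-6.95 ± 0.19 (SE), adjusted p = 3.9e-05), and Mmp3, with 12.18 and 12.60 in the colon26 arrays and 4.75 and 6.49 in the LLC arrays (-6.77), showed the largest differences. Mmp13, a collagenase, had 7.50 and 7.50 in the colon26 arrays and 3.02 and 2.77 in the LLC arrays (-4.61). Adam12, a membrane metalloprotease, had 8.52 and 8.47 in the colon26 arrays and 4.07 and 3.95 in the LLC arrays (-4.49). In each case both LLC arrays were lower than both colon26 arrays. When the number was left out, 0 and 7 protease and inhibitor genes were called higher in LLC and in colon26.

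In the signalling lists more genes were called higher in colon26 than in LLC, as was so over all genes tested (25.9% and 18.8%). Median centring reversed the lean of all genes, with 2439 called higher in colon26 and 2698 in LLC. After it, the counts were 17 and 3 for TGF-beta and BMP, 20 and 7 for kinases and ligands, and 4 and 2 for Ras-MAPK. In the TGF-beta and BMP pathway 35 of 47 genes were tested, 18 higher in colon26 and 2 higher in LLC (median -0.50). After Fst these were led by Ltbp2, a latent TGF-beta binding protein, with 9.15 and 8.85 in the colon26 arrays and 3.25 and 3.73 in the LLC arrays (-5.51), Bmp4, a BMP ligand, with 7.90 and 9.64 in the colon26 arrays and 4.00 and 4.35 in the LLC arrays (-4.59), and Inhba, the activin A subunit that follistatin binds. Inhba had 10.76 and 7.55 in the colon26 arrays and 5.06 and 5.15 in the LLC arrays (-4.05 ± 0.73 (SE), adjusted p = 0.0097), and its call was lost without colon26 number 1 (-3.01, adjusted p = 0.0702), the array in which it was highest. Of the receptor tyrosine kinases and their ligands 44 of 66 were tested, 20 higher in colon26 and 5 in LLC (median -0.34). Beside Fgf7, the membrane-bound ephrin Efnb2 had 9.35 and 9.18 in the colon26 arrays and 3.19 and 3.32 in the LLC arrays (-6.01 ± 0.16 (SE), adjusted p = 3.9e-05), the EGF receptor ligand betacellulin, Btc, had 10.38 and 9.63 in the colon26 arrays and 4.91 and 4.26 in the LLC arrays (-5.42), and the hepatocyte growth factor gene Hgf had 7.89 and 9.32 in the colon26 arrays and 4.21 and 4.92 in the LLC arrays (-4.04). The 4 members with the largest differences were thus ligands. Among the feedback and effector genes of the Ras-MAPK cascade 16 of 17 were tested and 5 were higher in colon26, with 1 in LLC (median -0.36); Rasa1, a GTPase-activating protein, differed by -1.67 and Spry4, a feedback inhibitor, by -0.88. Without the replicate number as a block, 0 and 7 TGF-beta and BMP genes, 2 and 7 kinase and ligand genes, 0 and 0 Ras-MAPK genes were called higher in LLC and in colon26. Of the Ras-MAPK genes 2 had an unadjusted limma p under 0.05 there.

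Guidance genes also had more calls in colon26, with 31 of 42 tested, 14 higher in colon26 and 7 in LLC (median -0.28). Over all genes tested the shares were 25.9% and 18.8%. After median centring 13 and 7 guidance genes and 13 and 7 Wnt genes were called higher in colon26 and in LLC. Slit2, a secreted ligand of Robo receptors, had 12.74 and 12.43 in the colon26 arrays and 5.24 and 5.35 in the LLC arrays (-7.29 ± 0.17 (SE), adjusted p = 3.5e-05). Nrp1, a co-receptor of semaphorins and VEGF, had 10.89 and 9.81 in the colon26 arrays and 4.51 and 3.72 in the LLC arrays (-6.24), and the semaphorin Sema3c had 10.35 and 10.40 in the colon26 arrays and 4.33 and 4.46 in the LLC arrays (-5.98). Sema5a had 10.21 and 6.92 in the colon26 arrays and 3.27 and 3.14 in the LLC arrays (-5.36), so its 2 colon26 arrays differed widely while both lay above LLC. In the Wnt pathway 37 of 55 were tested, 13 higher in colon26 and 7 in LLC (median -0.23): the secreted protein gene Dkk3 (-4.65), the ligand Wnt10a (-4.13) and the Frizzled receptors Fzd6 (-3.84) and Fzd5 (-3.34) differed most. The Notch and Hedgehog lists were divided, with 22 of 29 tested, 5 higher in LLC and 6 in colon26 (median 0.10, with 0.09 in number 1 and -0.06 in number 2). Gas1, a co-receptor of Hedgehog ligands, was higher in colon26 (-4.09), whereas Gli2, the transcription factor downstream of the pathway (3.21), and Dhh, a ligand (2.08), were higher in LLC. With line alone in the model, 2 and 7 guidance genes, 1 and 7 Wnt genes, 2 and 3 Notch and Hedgehog genes were called higher in LLC and in colon26.

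Developmental transcription factors set the lines apart in both directions. Of the Hox and Cdx genes 16 of 34 were tested, 6 higher in LLC and 6 higher in colon26 (median 0.00, with -0.05 in number 1 and 0.03 in number 2). LLC had more of the posterior HoxD genes Hoxd10, given above, and Hoxd9, with 6.77 and 9.49 in the LLC arrays and 5.34 and 5.27 in the colon26 arrays (2.82 ± 0.62 (SE), adjusted p = 0.018), a call that was lost without LLC number 2 (1.83, adjusted p = 0.107) or colon26 number 2 (1.96, adjusted p = 0.164). Colon26 had more Hoxc8, with 6.75 and 5.98 in the colon26 arrays and 3.19 and 3.29 in the LLC arrays (-3.13), and Hoxb6, with 6.06 and 6.77 in the colon26 arrays and 3.33 and 3.38 in the LLC arrays (-3.06). Of the other developmental factors 40 of 72 were tested, 11 higher in LLC and 17 in colon26 (median 0.04, with -0.10 in number 1 and 0.08 in number 2). Sox2, a factor of pluripotent and foregut progenitor cells, had 10.40 and 10.41 in the colon26 arrays and 3.19 and 2.98 in the LLC arrays (-7.32 ± 0.15 (SE), adjusted p = 3.5e-05). Lhx8, a LIM homeobox factor, had 10.19 and 9.26 in the colon26 arrays and 3.44 and 3.33 in the LLC arrays (-6.34). Foxf1, a forkhead factor of gut and lung mesenchyme, had 9.84 and 10.15 in the colon26 arrays and 4.20 and 4.13 in the LLC arrays (-5.83). The other pluripotency factors read were at background in all 4 arrays: Pou5f1 lay between 3.94 and 4.43, and Nanog between 2.93 and 3.85. Of the surface and stem cell markers 20 of 35 were tested, 2 higher in LLC and 8 in colon26 (median -0.32). Klf4, a zinc-finger factor of differentiating epithelium and of reprogramming, had 11.21 and 11.63 in the colon26 arrays and 5.84 and 5.34 in the LLC arrays (-5.83). Msln, the mesothelial surface protein mesothelin, had 8.18 and 9.95 in the colon26 arrays and 4.60 and 4.70 in the LLC arrays (-4.42). In the fit with no replicate block, 1 and 3 Hox and Cdx genes, 7 and 13 developmental factors, 0 and 4 stem cell and surface markers were called higher in LLC and in colon26.

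Imprinted genes, which are expressed from 1 parental copy, were mostly higher in LLC where they were called: 15 of 25 were tested, 6 higher in LLC and 2 in colon26 (median 0.40). The shares over all genes tested were 18.8% and 25.9%. Sgce had 8.42 and 8.54 in the LLC arrays and 4.16 and 4.25 in the colon26 arrays (4.27 ± 0.15 (SE), adjusted p = 6.1e-05). Peg3, a zinc-finger gene of the paternal copy, had 8.65 and 6.90 in the LLC arrays and 3.67 and 3.87 in the colon26 arrays (4.01). Ppp1r9a, a neighbour of Sgce on chromosome 6, had 7.55 and 5.87 in the LLC arrays and 3.76 and 3.92 in the colon26 arrays (2.87). Plagl1 differed by 2.52 and lost its call when any 1 of the 4 arrays was left out, with adjusted p between 0.0739 and 0.208. When the number was left out 2 imprinted genes were called higher in LLC and 0 in colon26. Of the Y-linked genes read, 3 were near background in colon26 and above it in LLC. Eif2s3y had 7.81 and 7.32 in the LLC arrays and 3.72 and 3.52 in the colon26 arrays (3.95 ± 0.16 (SE), adjusted p = 7.9e-05). Kdm5d, a histone demethylase, had 6.46 and 5.33 in the LLC arrays and 3.69 and 3.43 in the colon26 arrays (2.33). Uty had 5.35 and 5.10 in the LLC arrays and 3.87 and 3.81 in the colon26 arrays (1.39). Xist, the RNA that silences an X chromosome in females, had 5.56 and 5.40 in the LLC arrays and 6.85 and 5.66 in the colon26 arrays and was not called. Zfy2 and Usp9y were under log2 5 in all 4 arrays, the probe set of Sry lay between 5.98 and 6.24 in the 4 arrays, and the sex of the hosts is not given.

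Markers of lung epithelium were present in part, and few markers of intestinal epithelium were. Of 17 lung epithelium markers on the array 9 were tested, 5 higher in LLC and 1 in colon26 (median 0.52). In the fit with no replicate block the list gave 1 and 0. Abca3, the lipid transporter of surfactant-producing cells, had 8.75 and 8.06 in the LLC arrays and 4.09 and 4.70 in the colon26 arrays (4.01 ± 0.32 (SE), adjusted p = 0.00066). As the mean of its probe sets Abca3 differed by 1.86. Hopx, a homeodomain protein of alveolar and other cells, had 9.83 and 9.72 in the LLC arrays and 8.13 and 6.93 in the colon26 arrays (2.25). The defining genes Nkx2-1, between 3.77 and 4.43, and Sftpc, between 4.23 and 4.50, were at background in all 4 arrays. Of 22 intestinal markers 3 passed the filter, and Krt20 was the only one called. Vil1, the brush border protein villin, lay between 3.31 and 3.93, Cdx1 between 4.30 and 4.64 and Muc2, the goblet cell mucin, between 4.14 and 4.29.

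The glycolysis and hypoxia genes were the metabolic list with the largest share higher in LLC. Of the 34 tested out of 35 on the array, 18 were higher in LLC and 4 in colon26, with a median of 0.54 against -0.08 over all genes and 0.87 for the same genes in EGFP-low cells. Besides Egln3 and Adm, Slc2a3, the glucose transporter GLUT3, had 7.92 and 8.11 in the LLC arrays and 4.18 and 4.05 in the colon26 arrays (3.90 ± 0.16 (SE), adjusted p = 8.2e-05), and in the other direction Car12, a membrane carbonic anhydrase, had 8.23 and 8.5 in the colon26 arrays and 4.90 and 5.08 in the LLC arrays (-3.38). Without the replicate number as a block the list gave 7 and 2. Not all glycolytic enzymes were among them: Ldha, Pkm and Aldoa were not called, with differences of -0.31, 0.07 and -0.34.

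Among glutathione, NRF2 and xenobiotic enzymes (43 of 59 tested, 13 higher in LLC and 14 in colon26, median 0.13), different members stood out in each line. Nqo1, a quinone reductase, had 7.26 and 7.27 in the LLC arrays and 3.89 and 3.72 in the colon26 arrays (3.46 ± 0.15 (SE), adjusted p = 9.8e-05). Gstt3, a glutathione transferase, had 6.56 and 7.37 in the LLC arrays and 3.66 and 3.37 in the colon26 arrays (3.45). Abcb1a, the drug efflux pump P-glycoprotein, was higher in colon26, with 7.81 and 7.21 in the colon26 arrays and 3.91 and 3.88 in the LLC arrays (-3.62). Amino acid and one-carbon genes were divided evenly (32 of 36 tested, 9 and 9 called, median 0.04, with -0.10 in number 1 and 0.19 in number 2): the glutamine transporter Slc38a1 had 10.85 and 9.85 in the LLC arrays and 5.59 and 5.09 in the colon26 arrays (5.01 ± 0.18 (SE), adjusted p = 6.2e-05). Gldc, the glycine-cleaving decarboxylase, had 9.05 and 9.40 in the colon26 arrays and 4.41 and 4.74 in the LLC arrays (-4.64). In lipid synthesis (28 of 28 tested, 5 higher in LLC, 7 in colon26, median -0.22) the desaturases Fads1 (-2.48) and Scd1 (-1.84) were higher in colon26. With line alone in the model, 5 and 2 glutathione and xenobiotic genes, 2 and 2 amino acid genes, 1 and 2 lipid genes were called higher in LLC and in colon26.

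Colon26 cells had higher levels of many cytokine genes. Of the chemokines and cytokines 28 of 44 were tested, 12 were higher in colon26 and 4 in LLC (median -0.16), against 25.9% and 18.8% of all genes tested. Il33, an alarmin of the interleukin-1 family, had 11.82 and 11.38 in the colon26 arrays and 4.46 and 4.77 in the LLC arrays (-6.99 ± 0.22 (SE), adjusted p = 5.3e-05). Lif, a cytokine of the interleukin-6 family, had 10.59 and 10.16 in the colon26 arrays and 4.76 and 4.37 in the LLC arrays (-5.81). Cxcl5, a neutrophil chemoattractant, had 8.66 and 7.97 in the colon26 arrays and 2.95 and 2.86 in the LLC arrays (-5.41). Il6 had 9.66 and 9.55 in the colon26 arrays and 4.70 and 5.26 in the LLC arrays (-4.62). The 4 genes were at or near background in LLC, and 3 and 7 genes of the list were called without the replicate number as a block. S100a8, which neutrophils express strongly and epithelial cells can induce, had 8.67 and 9.05 in the colon26 arrays and 5.23 and 5.21 in the LLC arrays (-3.64). Of 10 neutrophil markers on the array 3 were tested, 2 higher in colon26, with summed linear signals of 285 to 299.7 in LLC and 699.6 to 813 in colon26. Without S100a8 the sums were 247 and 263 in LLC and 292 and 283 in colon26. The part of neutrophils in these differences was not tested.

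Interferon-response genes were divided between the lines. Interferons act on cells through surface receptors and JAK kinases, and many of their target genes carry an interferon-stimulated response element in the promoter. Of the list 37 of 42 were tested, 10 higher in LLC and 13 higher in colon26 (median 0.15). The median was 0.05 in number 1 and -0.11 in number 2, so the list as a whole had no settled direction.

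The guanylate-binding proteins and immunity-related GTPases, which attack the vacuoles of intracellular pathogens, led the LLC side. Gbp2 had 9.51 and 8.39 in the LLC arrays and 4.77 and 4.24 in the colon26 arrays (4.45 ± 0.19 (SE), adjusted p = 9.8e-05). Gbp7 had 9.82 and 8.19 in the LLC arrays and 5.91 and 5.35 in the colon26 arrays (3.37). Iigp1 had 8.87 and 7.23 in the LLC arrays and 4.91 and 4.05 in the colon26 arrays (3.57). The Ifit family, whose products bind foreign RNA, led the colon26 side: Ifit1 had 9.50 and 8.73 in the colon26 arrays and 7.78 and 4.97 in the LLC arrays (-2.74 ± 0.47 (SE), adjusted p = 0.0081). Ifit2 had 9.44 and 8.82 in the colon26 arrays and 7.57 and 6.01 in the LLC arrays (-2.33) and Ifit3 differed by -1.29. Cxcl10, a chemokine of T cells, had 8.75 and 9.73 in the colon26 arrays and 7.03 and 7.31 in the LLC arrays (-2.07). Ifih1, the RNA sensor MDA5, had 8.51 and 7.96 in the colon26 arrays and 7.0 and 5.59 in the LLC arrays (-1.94). Within a line the higher array of Ifit1 in LLC, number 1, lay far above number 2, so the spread of this gene was wide even though the lines did not overlap. In the fit with no replicate block, 2 genes of the list were called higher in LLC and 0 higher in colon26.

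The promoters of 4 genes that hold the same element are shown, 2 from each side of the comparison; they were picked for holding it among the Gbp and Ifit genes. The 150 bases before the RefSeq start of each gene (build GRCm38.p6, plus strand, 5′ to 3′) are those of Gbp2 at chr3:142620513-142620662, Gbp7 at chr3:142530186-142530335, Ifit1 at chr19:34640739-34640888 and Ifit3 at chr19:34583379-34583528. Capitals mark matches to GAAA, any pair of bases and GAAA again, the core letters of the interferon-stimulated response element, searched on both strands. All were found on the minus strand, so that they read TTTC, a pair of bases and TTTC here.
Gbp2: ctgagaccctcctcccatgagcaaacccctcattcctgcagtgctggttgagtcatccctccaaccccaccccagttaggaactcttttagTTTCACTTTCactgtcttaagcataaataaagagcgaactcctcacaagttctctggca
Gbp7: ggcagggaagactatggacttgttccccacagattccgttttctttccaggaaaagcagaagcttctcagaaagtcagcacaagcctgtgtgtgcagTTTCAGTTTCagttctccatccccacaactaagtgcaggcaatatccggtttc
Ifit1: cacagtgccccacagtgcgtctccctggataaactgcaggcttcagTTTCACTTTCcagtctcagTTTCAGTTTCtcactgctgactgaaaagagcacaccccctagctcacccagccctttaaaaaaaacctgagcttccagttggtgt
Ifit3: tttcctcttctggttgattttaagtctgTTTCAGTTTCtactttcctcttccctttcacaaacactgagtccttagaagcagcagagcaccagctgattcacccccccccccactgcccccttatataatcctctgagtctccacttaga

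The matches began 59 bases before the start in Gbp2, 53 in Gbp7, 104 and 85 in Ifit1, and 122 in Ifit3. In the full 250 bases before the start, 6 of the 9 genes higher in LLC with a RefSeq promoter held a match, as did 3 of 12 higher in colon26 and 4 of 11 not called. Of all 27025 genes with a promoter, 936 (3.46%) held one. A match is a description of the letters and not evidence of binding.

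**Figure D2:**
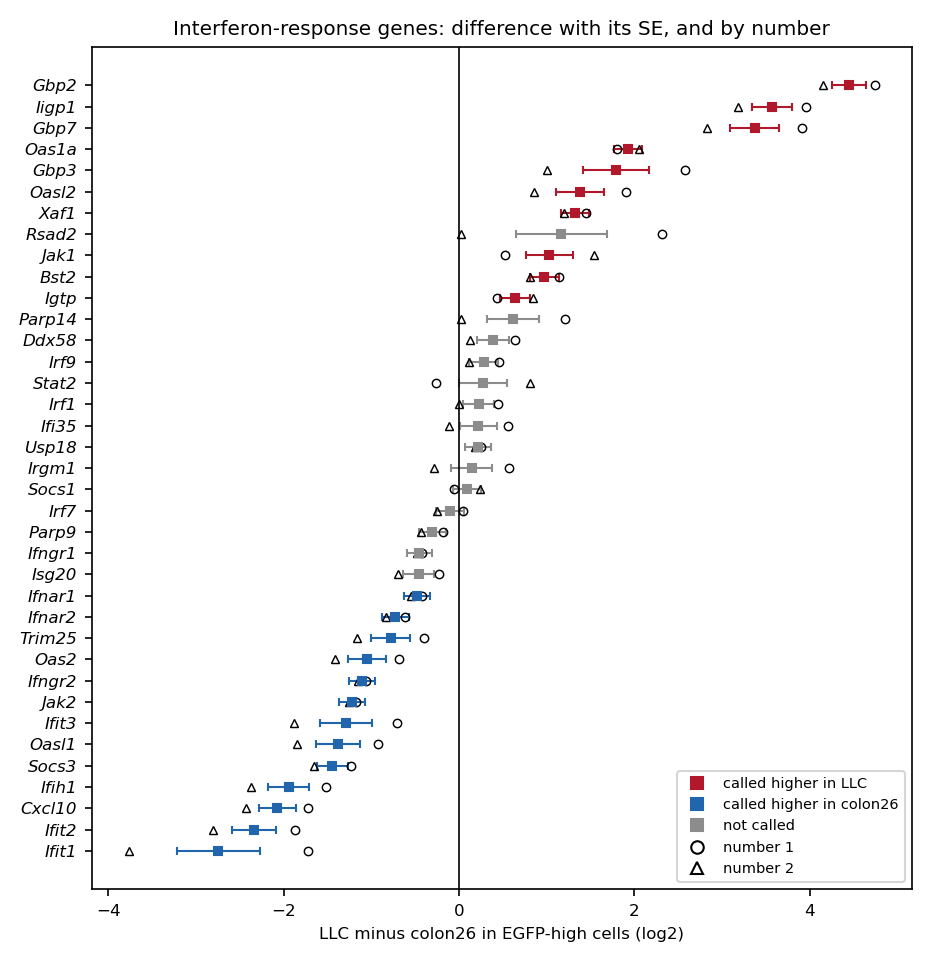
The LLC minus colon26 difference (log2, horizontal axis) of the 37 interferon-response genes tested is plotted with its limma SE (squares and bars; red, higher in LLC; blue, higher in colon26; grey, not called) beside the difference within number 1 (circles) and number 2 (triangles). The genes run from Gbp2 at 4.45 to Ifit1 at -2.74, with Gbp2, Iigp1 and Gbp7 at the LLC end and Ifit1, Ifit2 and Cxcl10 at the colon26 end.

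Of the MHC class I and peptide loading genes 15 of 18 were tested, 7 higher in colon26 and 1 in LLC (median -0.44), against 25.9% and 18.8% of all genes tested. H2-M3, a nonclassical class I gene, had 8.86 and 8.67 in the colon26 arrays and 7.51 and 7.43 in the LLC arrays (-1.29 ± 0.15 (SE), adjusted p = 0.0023), and the loading chaperone gene Calr had 12.49 and 12.61 in the colon26 arrays and 11.37 and 11.48 in the LLC arrays (-1.12). H2-K1, a classical class I gene, differed by -1.02, and its call was lost without LLC number 1 (-0.67, adjusted p = 0.0909) and without either colon26 array (adjusted p = 0.0746 and 0.0523). Class I genes vary in sequence between mouse strains, and whether the probe sets read both strains alike was not tested. Immediate early genes, which respond within minutes to serum, stress and tissue handling, were tested in 23 of 23 cases, 11 higher in colon26 and 2 in LLC (median -0.44). Beside Egr1, the orphan nuclear receptor gene Nr4a1 had 11.15 and 11.99 in the colon26 arrays and 6.10 and 6.38 in the LLC arrays (-5.33 ± 0.19 (SE), adjusted p = 6.2e-05) and Egr2 had 7.67 and 7.85 in the colon26 arrays and 4.60 and 4.56 in the LLC arrays (-3.18). Hspa1a, a heat shock chaperone, went the other way, with 8.56 and 11.27 in the LLC arrays and 5.0 and 4.92 in the colon26 arrays (4.95), while the nearly identical Hspa1b differed by 0.42 and was not called; the signals of this pair cannot be separated with certainty. When the number was left out, 0 and 0 class I genes and 0 and 4 immediate early genes were called higher in LLC and in colon26, and 5 class I genes had an unadjusted limma p under 0.05.

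Genes of the G2 phase and mitosis were more often higher in LLC, and those of the fork in either direction. Of the GINS and fork factors 10 of 10 were tested, 2 higher in LLC and 2 in colon26 (median 0.19), against 18.8% and 25.9% of all genes tested. Cdc45, the helicase partner of GINS, had 7.41 and 8.95 in the colon26 arrays and 6.4 and 8.03 in the LLC arrays (-0.97 ± 0.15 (SE), adjusted p = 0.0058), and Gins2 differed by -0.80, whereas Gins3 (0.82) and Tipin, a fork protection factor (0.91), were higher in LLC. For Cdc45 the arrays of the lines overlapped across numbers. Each of the 4 calls was lost on leaving out at least 2 of the 4 arrays, with adjusted p up to 0.209. S phase genes (34 of 35 tested) were higher in LLC in 9 cases and in colon26 in 3 (median 0.21), and Rrm2, the small subunit of ribonucleotide reductase, differed by 1.04. G2 and mitosis genes (29 of 29 tested) were higher in LLC in 13 cases and in colon26 in 3 (median 0.59). Of these, Aspm, a spindle pole protein, had 11.34 and 10.46 in the LLC arrays and 10.05 and 8.88 in the colon26 arrays (1.44 ± 0.16 (SE), adjusted p = 0.0021), Bub1b, a spindle checkpoint kinase, differed by 1.19, Cdk1, the mitotic kinase, by 1.07 and its partner cyclin Ccnb2 by 1.03. The 4 calls were lost without LLC number 2 or without colon26 number 1, with adjusted p between 0.0602 and 0.155, and the Rrm2 call without LLC number 2 (0.79, adjusted p = 0.17) and without either colon26 array. Without the replicate number as a block limma called no S phase, G2 and mitosis or fork gene in either direction, and 3, 4 and 0 of them had an unadjusted p under 0.05.

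Most p53 target genes tested were higher in colon26. Of 18 on the array 15 were tested, 11 higher in colon26 and 2 in LLC (median -0.88), against 25.9% and 18.8% of all genes tested. Plk2, a polo-like kinase that p53 induces, had 9.33 and 10.54 in the colon26 arrays and 4.18 and 4.26 in the LLC arrays (-5.71 ± 0.29 (SE), adjusted p = 0.00015). Eda2r, a death-domain receptor, had 7.58 and 7.45 in the colon26 arrays and 4.17 and 4.30 in the LLC arrays (-3.28). Trp53inp1 had 8.0 and 8.06 in the colon26 arrays and 5.17 and 4.76 in the LLC arrays (-3.06), and the antiproliferative gene Btg2 had 8.27 and 8.95 in the colon26 arrays and 4.94 and 7.25 in the LLC arrays (-2.52). Cyclin and CDK inhibitor genes were called equally in both directions, 4 and 4 of 16 tested, near the shares over all genes tested. Cdkn1a, the CDK inhibitor p21, had 11.21 and 11.99 in the colon26 arrays and 8.98 and 9.13 in the LLC arrays (-2.54 ± 0.20 (SE), adjusted p = 0.00066), and cyclin D1, Ccnd1, had 11.58 and 11.69 in the colon26 arrays and 10.03 and 10.25 in the LLC arrays (-1.49). Cdkn2a lay between 3.27 and 4.17 and Cdkn2b between 3.85 and 4.56, at background in all 4 arrays, while Mtap, their neighbour on chromosome 4, was above log2 10 in each array. Bcl2 family and death receptor genes (30 of 35 tested) were higher in colon26 in 14 cases and in LLC in 2 (median -0.53). Bcl2 itself, an inhibitor of apoptosis, was higher in LLC, with 9.0 and 8.33 in the LLC arrays and 6.14 and 5.72 in the colon26 arrays (2.73 ± 0.16 (SE), adjusted p = 0.00022), and Nlrp3, an inflammasome sensor, was higher in colon26 (-2.47). As the means of their probe sets Bcl2 differed by 1.31, Ccnd1 by -0.55 and Btg2 by -3.29. In DNA repair (31 of 31 tested, 8 higher in LLC, 2 in colon26, median 0.19), the nuclease subunit Ercc1 was higher in colon26, with 11.17 and 11.90 in the colon26 arrays and 9.29 and 9.57 in the LLC arrays (-2.10), and the checkpoint kinase Chek1 in LLC (1.67). With line alone in the model, 1 and 5 p53 target genes, 1 and 4 Bcl2 and death receptor genes, 0 and 1 repair genes were called higher in LLC and in colon26.

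Of the chromatin and DNA methylation genes 34 of 37 were tested, with 8 higher in LLC and 8 in colon26 (median 0.15). These counts lie near the shares over all genes tested, 18.8% and 25.9%. Smarca2, the ATPase BRM of the SWI/SNF complex, had 7.32 and 7.30 in the colon26 arrays and 3.09 and 2.95 in the LLC arrays (-4.29 ± 0.15 (SE), adjusted p = 6.1e-05). Hdac9, a class II histone deacetylase, had 8.69 and 8.20 in the colon26 arrays and 3.38 and 3.12 in the LLC arrays (-5.20). Both were at background in LLC, and 0 and 2 genes of the list were called without the replicate number as a block. Integrins and laminins, which bind cells to matrix, were called in both directions, with 14 of 25 tested, 5 higher in LLC and 5 in colon26 (median 0.45). Itga3, a laminin-binding alpha chain, had 8.74 and 9.05 in the LLC arrays and 7.43 and 7.62 in the colon26 arrays (1.37). Itgb5, a vitronectin-binding beta chain, had 9.26 and 9.33 in the colon26 arrays and 7.92 and 7.84 in the LLC arrays (-1.41). Itgb2, the beta chain of leukocyte integrins, was at background in colon26, with 8.42 and 7.98 in the LLC arrays and 4.53 and 4.65 in the colon26 arrays (3.61 ± 0.19 (SE), adjusted p = 0.00017). The macrophage markers ran otherwise: of 17 on the array 11 were tested, 2 higher in LLC and 4 in colon26 (median 0.00, with -0.08 in number 1 and 0.20 in number 2), with summed linear signals of 1047 to 1119 in LLC and 1880.5 to 2478 in colon26. Cd14 made that gap: without it the sums were 893 and 838.5 in LLC and 1143 and 730.5 in colon26. Cd14, the lipopolysaccharide co-receptor, had 9.53 and 10.77 in the colon26 arrays and 7.27 and 8.13 in the LLC arrays (-2.45). Csf1r had 6.66 and 6.18 in the LLC arrays and 7.18 and 5.98 in the colon26 arrays and was not called, and Ptprc, the pan-leukocyte gene CD45, lay between 3.85 and 5.30. The part of leukocytes in the difference of Itgb2 was not tested.

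The remaining lists, given as genes higher in LLC and higher in colon26, had 7 and 8 of 22 tested for ion channels and junction proteins, 3 and 4 of 24 tested for Myc and ribosome biogenesis, 4 and 4 of 16 tested for cyclins, CDK inhibitors and retinoblastoma genes, 0 and 3 of 6 tested for germ line and cancer-testis genes, and 0 and 0 of 3 tested for MHC class II. In the ion channel list the chloride channel protein Clic5 was higher in colon26 (-5.66) and the hemichannel Panx1 in LLC (2.89), and of the water channels Aqp1 was higher in colon26 (-2.53) and Aqp3 in LLC (1.72). Magee1 (-2.0) and Maged1 (-1.23), of the melanoma antigen family, were higher in colon26. Other host cell lists had few genes past the filter, with calls higher in LLC and in colon26 as follows: T and NK cells 0 and 2 of 5 tested, B and plasma cells 1 and 1 of 3 tested, endothelium 3 and 2 of 8 tested, pericytes and smooth muscle 1 and 1 of 4 tested, adipocytes 1 and 0 of 2 tested, skeletal muscle 1 and 1 of 2 tested and keratinocytes 1 and 1 of 4 tested, and none of 4 erythroid genes passed the filter. Lpl, the lipase of the adipocyte list that other cells make too, had 7.94 and 6.87 in the LLC arrays and 4.22 and 4.31 in the colon26 arrays (3.14). Krt10, a keratin of differentiating epidermis, had 8.08 and 8.5 in the colon26 arrays and 4.47 and 4.69 in the LLC arrays (-3.71).

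**Figure D3:**
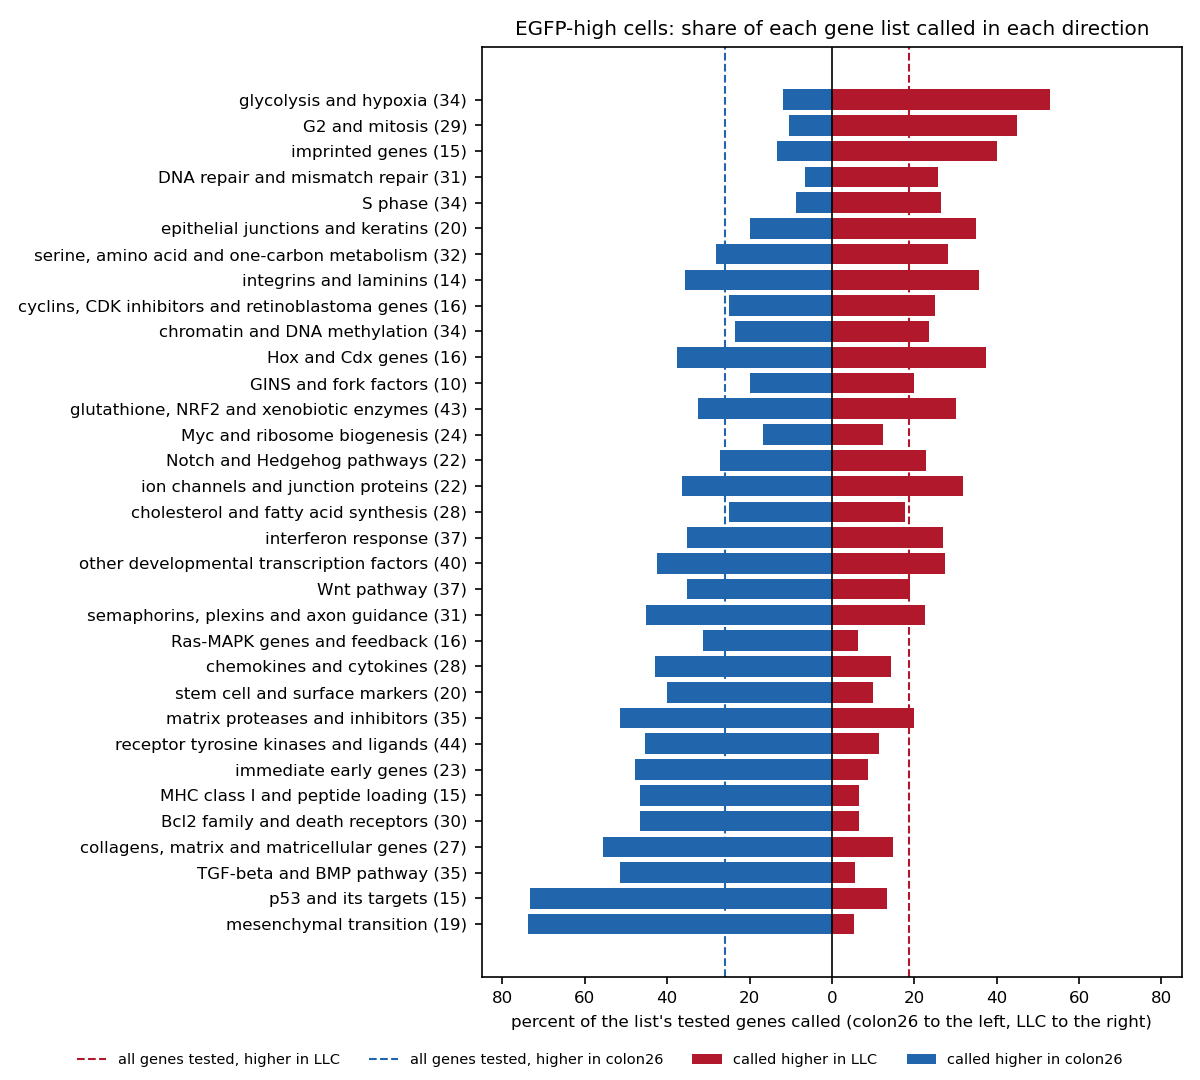
The percent of the tested genes of each list (number tested in parentheses) called higher in LLC (red, to the right) or in colon26 (blue, to the left) is plotted for the programme lists with 10 or more genes tested; dashed lines are the shares over all 11509 genes, 18.8% and 25.9%. Glycolysis and hypoxia stand at the LLC end and the mesenchymal and p53 target lists at the colon26 end.

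The line difference was uneven along the genome. Carcinoma lines carry gains and losses of chromosomes, and expression follows copy number for many genes; copy number was not measured here. The median LLC minus colon26 difference of the 431 genes tested on chromosome 12 was 0.45, with 0.41 in number 1, 0.42 in number 2 and 0.51 in EGFP-low cells. On this chromosome 43.9% of the genes were called higher in LLC and 16% higher in colon26. Chromosome 10 was next, with a median of 0.35 over 561 genes and 41.0% against 13.9% called. Chromosome 7 lay at the other end, with a median of -0.38 over 872 genes, 9.5% called higher in LLC and 40.1% in colon26. The medians of the other autosomes and the X chromosome lay between -0.28 and 0.13. These chromosome medians kept their sign after quantile normalization, at 0.53, 0.43 and -0.29, and after median centring, at 0.56, 0.46 and -0.27. Within chromosome 12 the window of 25 neighbouring tested genes from Sos2 to Mnat1 had the highest median of 11004 windows, 1.18. There, 22 of 25 genes had a positive difference, whether called or not, and the median was 1.43 in EGFP-low cells. The lowest, -1.29, ran from Il33 to Pcgf5 on chromosome 19, where number 1 gave -0.85 and number 2 gave -1.85. These windows overlap and were picked by their values, so they are a description.

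**Figure D4:**
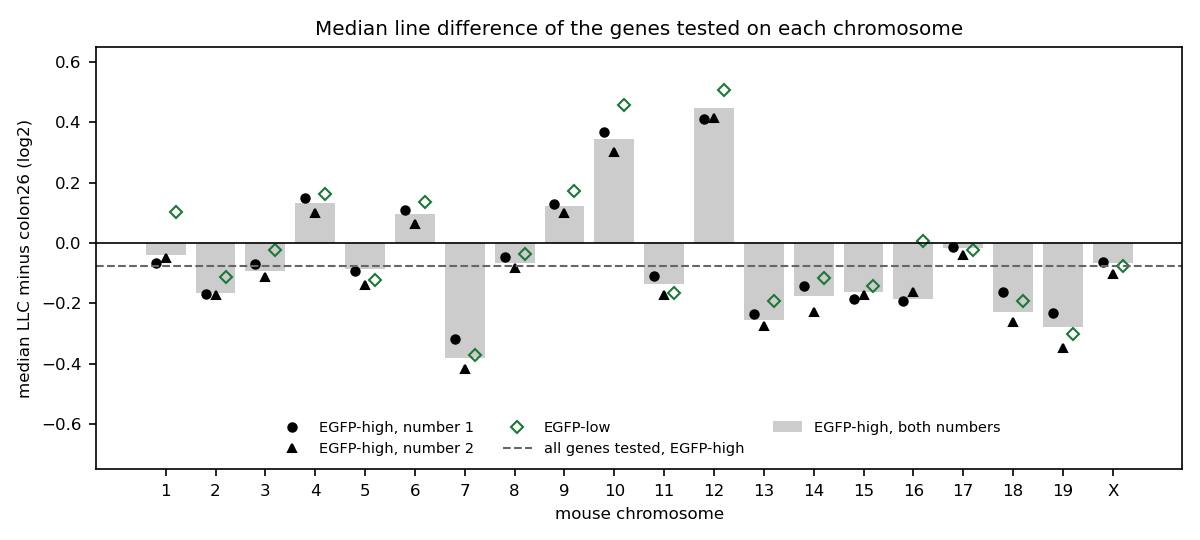
The median LLC minus colon26 difference (log2, vertical axis) of the genes tested on each mouse chromosome with at least 20 of them (horizontal axis) is plotted for EGFP-high cells (bars), within number 1 (circles) and number 2 (triangles), and for EGFP-low cells (diamonds); the dashed line is the median of all genes, -0.08. Chromosomes 10 and 12 stand above the line and chromosome 7 below it in every set.

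Whether a line difference belonged to the EGFP-high cells was asked by fitting the same 11509 genes in the 4 EGFP-low arrays, which are different arrays of the same lines and numbers. There, 1824 genes (15.8%) were higher in LLC and 1893 (16.4%) higher in colon26. Of the 5152 genes called in EGFP-high cells, 4959 (96.3%) had the same sign in EGFP-low cells. The share with the same sign over all 11509 genes was not counted, so this value is not read as particular to the called genes. The genes called in both with the same direction were 3093, which is 60.0% of the EGFP-high calls and 83.2% of the EGFP-low calls, and 9 genes were called in opposite directions. The difference between the sorts was tested itself over the 8 arrays, with each line and number as a block. The line difference was more positive in EGFP-high cells for 43 genes (0.374%) and more negative for 137 (1.19%). This count rested on the scaling and the block: 5 genes were called after quantile normalization, 413 after median centring, and 0 by limma without the replicate block, where 217 had an unadjusted p under 0.05. In the median-centred fit the moderation gave all genes a common spread, so its calls do not rest on the spread of each gene.

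Fabp5, the fatty acid-binding protein described above, showed the largest difference between the sorts. It had 10.17 and 9.49 in LLC and 5.50 and 3.71 in colon26 EGFP-high cells, against 9.36 and 8.85 in LLC and 11.25 and 8.35 in colon26 EGFP-low cells, so the line difference was 5.23 in EGFP-high and -0.70 in EGFP-low cells (5.93 ± 0.34 (SE), adjusted p = 7.8e-06), and it remained called after quantile normalization. Osr2, an odd-skipped transcription factor of limb and palate mesenchyme, had 3.48 and 5.96 in LLC and 4.57 and 6.76 in colon26 EGFP-high cells, against 6.42 and 9.34 in LLC and 4.28 and 6.58 in colon26 EGFP-low cells (-3.40 ± 0.27 (SE), adjusted p = 0.00015). Sema3a, a secreted repellent of axons, had 8.14 and 7.93 in LLC and 11.30 and 10.71 in colon26 EGFP-high cells, against 10.89 and 10.85 in LLC and 11.30 and 10.62 in colon26 EGFP-low cells (-2.88 ± 0.25 (SE), adjusted p = 0.00027). Osr2 had line differences of -0.95 and 2.46 in EGFP-high and EGFP-low cells, with arrays that overlapped between the lines in both sorts, and Sema3a separated the lines in the EGFP-high cells. Dcn and Col1a2, both fibroblast genes, and Ahr, the aryl hydrocarbon receptor, were on the negative side too, with -3.03, -3.06 and -2.86, and they were not called after quantile normalization (adjusted p = 0.076, 0.22 and 0.076). On the positive side stood the lysozyme genes Lyz1 (2.94) and Lyz2 (2.48), which are nearly identical in sequence, Srgn, a proteoglycan of leukocyte granules (2.71), and the chemokine Ccl6 (2.30). All but Lyz1 lost their call after quantile normalization (adjusted p = 0.051, 0.077 and 0.077). Besides Fabp5, Osr2, Sema3a and Lyz1, the receptor tyrosine kinase gene Ddr1 was called in that fit (-2.57, limma adjusted p = 0.028). The macrophage marker list, which itself holds Lyz2, had a median line difference of 0.00 in EGFP-high and -1.40 in EGFP-low cells. The part of macrophages in the differences of these genes was not tested.

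**Figure D5:**
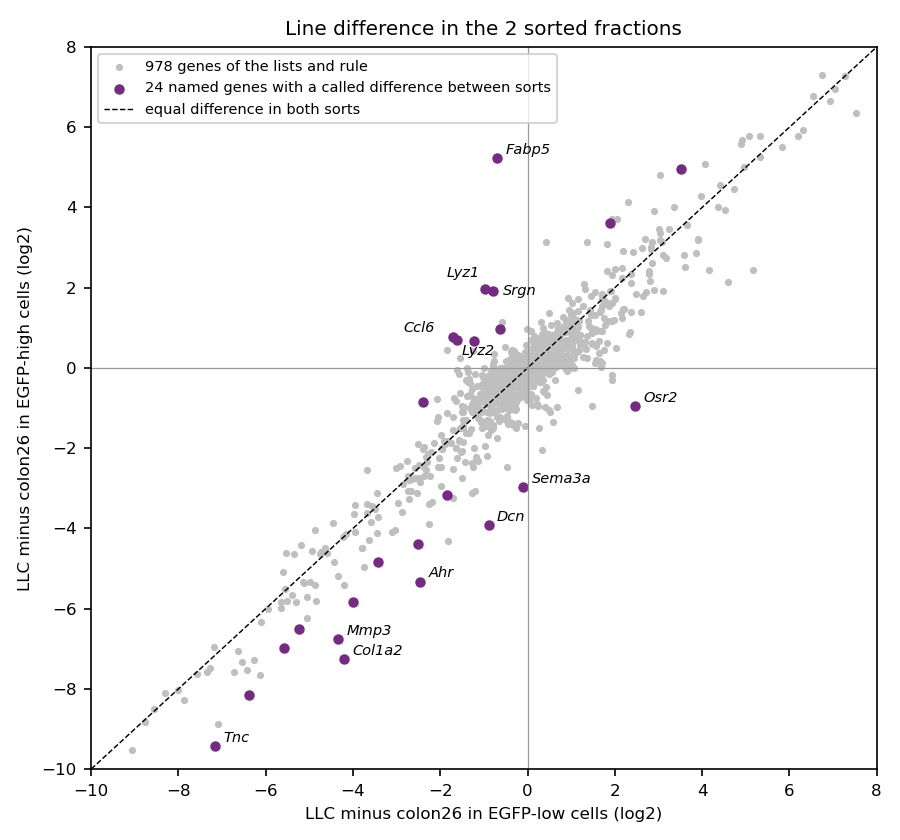
The LLC minus colon26 difference (log2) in EGFP-high cells (vertical axis) is plotted against that in EGFP-low cells (horizontal axis) for 978 genes of the lists and the naming rule (grey) and the 24 named genes with a called difference between the sorts (purple); the dashed line marks equal differences. Fabp5 lies farthest above the line at 5.23 against -0.70, and Osr2 farthest below it at -0.95 against 2.46.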

How the data were processed

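The deposited values are log2 signals from RMA by the authors, per the submitters' processing notes; whether all 8 arrays were normalized together is not given in the sources used here. Of 45101 probe sets, 34945 have 1 gene symbol, 932 have several and 9160 have none in the platform annotation. A gene was represented by its probe set of highest mean over the 8 arrays, and genes above log2 5 in at least 2 of the 4 EGFP-high arrays were tested. The sizes given are those of that probe set. As the mean of probe sets some were smaller, such as Ank3 (3.14) and Cryab (-4.95), and some larger, such as Adm (5.83). LLC and colon26 were compared with limma 3.58.1 in R 4.3.3, with the replicate number as a block and Benjamini-Hochberg adjustment over all genes tested, at an adjusted p under 0.05. The block follows the replicate numbers in the labels, and the deviations of same-numbered arrays correlated in all 6 pairs of groups, at r between 0.74 and 0.89. Only 1 residual degree of freedom remained, so the spread was moderated across genes. With 2 arrays a group, precision is low throughout.

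Named were the 15 called genes with the largest difference in each direction among those whose arrays did not overlap, Gins1, up to 4 called members of each list by size, and the 5 largest called differences between the sorts of each sign. Aldoa, Col5a2, Csf1r, Cxcl10, Ddr1, Dpt, Epcam, Grhl2, Hspa1b, Ifih1, Ifit2, Ifit3, Ldha, Pkm, Vim, Xist, Zeb1, genes at background and the neighbouring pairs were named after their values were seen. The comparison and the gene lists were chosen with earlier results of these data known. The test was tried on data simulated from the fitted model itself, which cannot show whether that model holds for these arrays. Alternatives changed the block, the arrays, the filter, the scaling, the moderation and the probe set of a gene. Promoters are from RefSeq. Figures were drawn with matplotlib 3.10.9.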

Additional observations from a re-analysis of the deposited data

Results flagged for a closer look

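The line difference (LLC minus colon26, log2) differed between EGFP-high and EGFP-low cells in 24 of the genes named, by limma's test of that difference over the 8 arrays with each line and number as a block. Groups of 2 arrays are too small for a search for outlying arrays. The difference of the line differences, EGFP-high minus EGFP-low, was negative for 14 genes. Among matrix and fibroblast genes it was -3.06 for Col1a2, -3.03 for Dcn, -1.42 for Col1a1, -2.26 for Tnc, -1.87 for Tgfbi, -2.43 for Mmp3 and -1.28 for Mmp2. Among transcription factors it was -3.40 for Osr2, -2.86 for Ahr, -1.77 for Egr1, -1.32 for Egr2 and -1.83 for Klf4. For the secreted proteins Sema3a and Il33 it was -2.88 and -1.41.

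It was positive for 10 genes. Fabp5 had 5.93. Genes strongly expressed by leukocytes made up much of the rest, with 2.94 for Lyz1, 2.48 for Lyz2, 2.71 for Srgn, 2.30 for Ccl6, 1.89 for Ctss, 1.72 for Itgb2 and 1.54 for Mrc1. The endothelial gene Plvap had 1.59 and the heat shock gene Hspa1a 1.45. Only Osr2, Sema3a, Lyz1 and Fabp5 of the 24 were called after quantile normalization, none without the replicate block, and all 24 after median centring. The median-centred fit used a common spread for all genes, so its calls add little for the single genes.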

How the results depend on the processing

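The 4 arrays leave little to estimate the spread from, and values near background depend on how arrays are scaled. Without the replicate block the EGFP-high comparison gave 856 calls in place of 5152, with 334 higher in LLC and 522 in colon26, and all 8 arrays without the replicate block gave 1373, with 527 and 846. Without the filter 7963 genes were called, 5483 of them higher in colon26. The fits that left out 1 EGFP-high array also held the EGFP-low arrays. Their baseline, all 8 arrays with the replicate block, gave 4678 calls. Leaving out 1 EGFP-high array gave 2514 to 3138 calls, 1033 to 1298 higher in LLC and 1410 to 1840 in colon26. The trend with robust moderation, the filter at log2 7 or over all 8 arrays, the mean of probe sets, every probe set, both scalings, and all 8 arrays with the replicate block, also with a random block, stayed within 1.5 times of 5152. In EGFP-low cells the fit without the replicate block gave 646 calls, 274 and 372. The difference between the sorts had 180 calls, but 0 (0 and 0) without the replicate block, where limma found 217 at an unadjusted p under 0.05, 5 (2 and 3) after quantile normalization and 413 (77 and 336) after median centring. In the median-centred fit of this difference all genes shared a common spread. Genes above log2 8 in 1 line and under 5 in the other numbered 129 (36 and 93), and those above 7 and under 6 numbered 414 (166 in LLC).

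Of the 196 genes named by the rule, 77 lost their call without the replicate block, 20 without LLC number 1, 34 without LLC number 2, 34 without colon26 number 1 and 35 without colon26 number 2, and none turned its direction in the alternatives run on them.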
